A study of Mus musculus with 6 samples.

Results

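The cadherins and protocadherins, adhesion molecules of the cell surface that bind calcium, were examined in the lumbar spinal cord of mouse embryos with and without Tnc, the gene for the matrix glycoprotein tenascin-C. Members were all genes whose single symbol in the array annotation is Cdh followed by a number, or Pcdh followed by a number or by the cluster letters a, b or g, with the row of highest mean standing for a gene that has several. The rule left out 2 genes, Cdh5 of endothelium and Cdh19. It gave 55 genes of the 19938 with a single symbol. They fall into 16 classical cadherins (5 of type I and 11 of type II), 5 other Cdh genes, 12 non-clustered protocadherins and 22 clustered protocadherins, all 22 of the Pcdhb cluster. Of the 55 genes, 3 (Cdh17, Cdh26 and Pcdhb1) had a mean below 6.14. That value, used as a background guide, is the level that 95% of 1190 olfactory and vomeronasal genes, silent in cord, did not exceed. No filter on dim genes was applied, so all 55 were tested.

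The wild-type group comprised 3 embryonic samples and the knockout group, labelled TNC -/-, 3 more, all of strain SV129 at E15.5 and called biological replicates. Total RNA of each sample went to 1 whole-transcript oligonucleotide array, and the deposited values are log2 signals. Whether the embryos of a group shared a litter, whether any were pooled, and which part of Tnc was removed the labels do not say. Where separate animals are not stated, p values measure only the spread between these samples. Whole cord was measured, so fewer cells of a type and less RNA per cell cannot be told apart.

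Classical cadherins bind the same cadherin on a neighbouring cell and anchor to actin through beta-catenin, p120-catenin and alpha-catenin. In the spinal cord, N-cadherin (Cdh2) holds the neuroepithelium together, while combinations of type II cadherins sort motor neurons into pools and mark interneuron groups. Non-clustered, or delta, protocadherins adhere more weakly and signal to the actin machinery during axon growth. Clustered protocadherins are transcribed from tandem promoters, of which each neuron uses a random few. Their products give the cell a surface identity for self-avoidance, and some of them promote the survival of spinal interneurons. A log2 signal depends on the probes of its row, so levels are compared between arrays and not between genes.

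Tnc read 10.72, 10.22 and 10.02 in wild-type replicates 1, 2 and 3 and 9.64, 9.76 and 9.47 in the knockout arrays. Every knockout array was thus below every wild-type array, with a difference of -0.69 and an exact two-sided permutation p of 0.1, the smallest that this design allows. The knockout signal was 61.8% of wild type, and in limma over all genes Tnc had an unadjusted p of 0.00380 and an adjusted p of 1, so the targeted gene itself did not pass the test used below. The medians of the 6 arrays lay between 6.96 and 7.10. All 5 measured neural tube markers and all 5 lumbar Hox markers were above the background guide. The mean of 3 Y-linked genes read 8.20 and 7.86 in knockout replicates 1 and 3 and between 4.32 and 4.48 elsewhere, so sex was unequal between the groups. The first principal component held 49.0% of the variance and set wild-type replicate 1 (score 18.5) opposite wild-type replicate 3 (score -22.8), with the knockout arrays between 8.33 and -9.48.

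No cadherin or protocadherin gene among the 55 members differed between knockout and wild type by the test. In limma with Benjamini-Hochberg adjustment over all genes, 0 of 55 passed an adjusted p of 0.05, where the background was 0.0% of all genes. At an unadjusted p under 0.05 the count was again 0 of 55, against 1.7% of all genes, and the smallest unadjusted p was 0.0853, for Pcdh11x. The groups overlapped for all 55 genes, whereas they did not overlap for 5.82% of all genes. Differences ran from -0.20 (Pcdhb20) to 0.21 (Cdh6) on the log2 scale. Over all 55 the 95% confidence intervals stayed between -0.67 (Pcdhb19) and 0.77 (Pcdhb9). The median standard error was 0.12 for the members and 0.09 for all genes.

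The counts of higher and lower genes differed by class, which is given as a description with no test. Of the non-clustered protocadherins 11 of 12 had a higher mean in knockout, with a median difference of 0.06. Of the clustered protocadherins 5 of 22 were higher, with a median of -0.08. Of the classical cadherins 8 of 16 were higher, with a median of 0.02, and of the other Cdh genes 4 of 5, with a median of 0.04. Among all genes 46.4% were higher and the median was -0.01. All 6 neuron markers were higher too (median 0.07), as were all 5 motor neuron markers (0.10). So were all 5 neural tube (0.14) and all 5 lumbar markers (0.09), while of 5 skeletal muscle markers 1 was. The clustered count moved with the wild-type arrays. Without wild-type replicate 1 it became 13 of 22 higher at a median of 0.02, and without wild-type replicate 3 it became 1 of 22 higher at -0.21. Leaving out both kept only replicate 2 of the wild-type arrays and gave 1 of 22 higher at -0.14. Array weights, which rest mainly on that same array (weight 6.39), gave 1 of 22 at -0.15, so these results are not independent. In the fit without wild-type replicate 3, 10 of the 22 had an unadjusted p under 0.05, beside 6.91% of all genes, and none an adjusted p under 0.05. The non-clustered count dropped to 7 of 12 when knockout replicate 2 was left out (median 0.013), and to the same count when wild-type replicate 2 was (median 0.031).

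**Figure D1:**
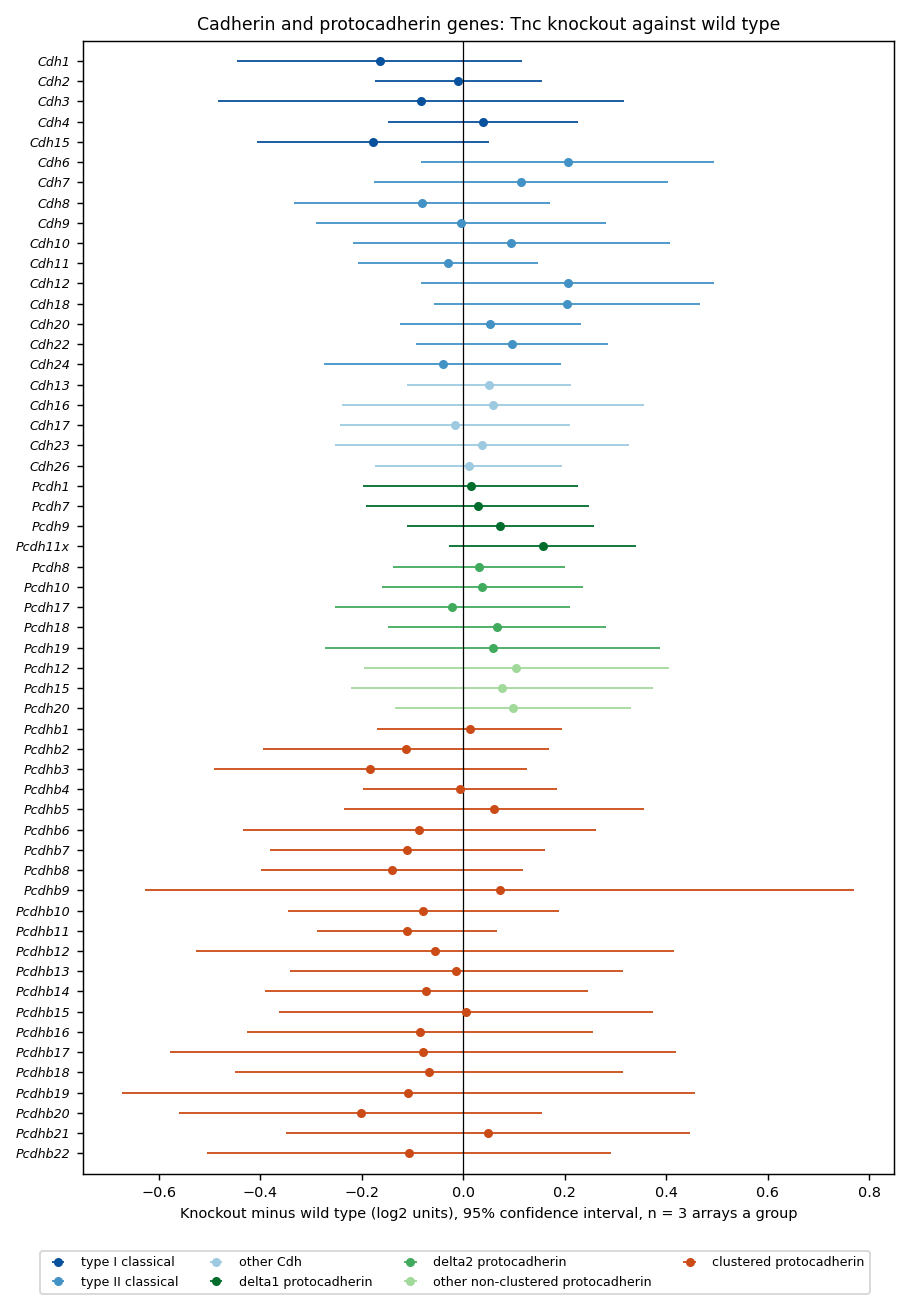
Knockout minus wild type in log2 units for each of the 55 genes, with 95% confidence intervals from limma (n = 3 arrays a group) and colours for the classes. Every interval spans 0, and the points run from -0.20 to 0.21.

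Type I classical cadherins stood level or slightly lower in knockout, with 1 of 5 higher and a median of -0.08. N-cadherin (Cdh2), the neuroepithelial cadherin, read 12.33, 12.31 and 12.37 in wild type and 12.26, 12.39 and 12.34 in knockout. The 6 values lay within a narrow band and the groups overlapped fully. Its difference was -0.01 with an interval from -0.17 to 0.15, and its standard error of 0.07 was below the members' median of 0.12. R-cadherin (Cdh4), found on subsets of neurons and glia, read 11.03, 11.10 and 11.20 in wild type and 11.06, 11.16 and 11.22 in knockout, a difference of 0.04. Both groups covered the same range.

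E-cadherin (Cdh1), an epithelial cadherin, read 6.33, 6.73 and 6.42 in wild type and 6.20, 6.31 and 6.47 in knockout, not far above the background guide in any array. The groups overlapped, at a difference of -0.16 (standard error 0.12), which was -0.04 without wild-type replicate 2. M-cadherin (Cdh15), the cadherin of skeletal muscle precursors, read 6.48, 6.60 and 6.65 in wild type and 6.28, 6.34 and 6.58 in knockout. Of its knockout arrays 2 were below every wild-type array and the other was not. The difference was -0.18 (standard error 0.10). The 5 skeletal muscle markers, 1 of them below the background guide, had a summed level of 9.03 to 9.40 in wild type and 9.15 to 9.32 in knockout on the log2 scale, and their part in the Cdh15 values was not tested. P-cadherin (Cdh3) had the widest wild-type range of the type I genes, from 8.99 in replicate 3 to 9.63 in replicate 1.

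Type II classical cadherins, the set tied to neuronal sorting, included the members that stood furthest above wild type in knockout. Of 11 genes 7 were higher, with a median of 0.09. Cdh6, expressed in the neural tube and in motor neuron subsets, read 10.40, 10.21 and 10.66 in wild type and 10.48, 10.71 and 10.70 in knockout. The highest wild-type array lay above the lowest knockout array. Its difference was 0.21 with an interval from -0.08 to 0.49, and it was 0.10 without wild-type replicate 2 and 0.33 without wild-type replicate 3. Cdh12 (brain cadherin) read 10.03, 9.70 and 9.97 in wild type and 10.11, 10.29 and 9.91 in knockout. Knockout replicates 1 and 2 were above all wild-type arrays and knockout replicate 3 was not. The difference was 0.21 with an interval from -0.08 to 0.50. Dropping the second wild-type array left 0.105, and dropping the second knockout array left 0.11.

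Cdh18, a type II cadherin of the central nervous system, read 8.75, 8.53 and 8.43 in wild type and 8.93, 8.78 and 8.61 in knockout. Again 2 knockout arrays lay above all wild-type arrays. The difference was 0.20 (standard error 0.11), and a second row of the same gene gave 0.23. Cdh18 had the smallest unadjusted p of the classical cadherins, 0.109. Leaving out wild-type replicate 3 or knockout replicate 1 gave 0.14 and 0.12. Cdh9, a neighbour of Cdh10 with a role in synapse formation, read 8.20, 7.92 and 8.07 against 8.11, 8.25 and 7.82, a difference of -0.00466. Cdh10 read 9.95, 9.55 and 9.83 against 9.91, 10.06 and 9.65, a difference of 0.09 that was -0.02 without wild-type replicate 2. These 5 genes, Cdh6, Cdh9, Cdh10, Cdh12 and Cdh18, all lie on chromosome 15. In 4 of the 5, all but Cdh18, the highest of the 6 arrays was knockout replicate 2, as it was for 8.73% of all genes. The same array was highest for 4 of 5 endothelial markers and 5 of 11 cytoplasmic partners of protocadherins. It was highest for 4 of 11 catenins and junction linkers and for 0 of 22 Pcdhb genes.

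Cdh7, known from migrating neural crest in chick, read 9.17, 8.67 and 9.04 in wild type and 9.11, 9.10 and 9.03 in knockout. The knockout arrays stood together and wild-type replicate 2 alone stood apart. The difference was 0.11, and -0.03 without that array. Cdh20, known from motor neuron pools in chick, read 8.78, 8.66 and 8.86 against 8.80, 8.84 and 8.82, a difference of 0.05. Cdh8, a cadherin of sensory and interneuron circuits, read 11.54, 11.40 and 11.17 in wild type and 11.40, 11.27 and 11.19 in knockout. It was the type II gene furthest below wild type, at -0.08, and its direction turned without wild-type replicate 1 (0.00457). Cdh11, a cadherin of mesenchyme that neural cells also express, read 11.71, 11.59 and 11.52 against 11.55, 11.61 and 11.57, a difference of -0.03 with an interval from -0.21 to 0.15. A further 3 rows name Cdh11 together with other symbols and were not used. Cdh22 and Cdh24 differed by 0.10 and -0.04.

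**Figure D2:**
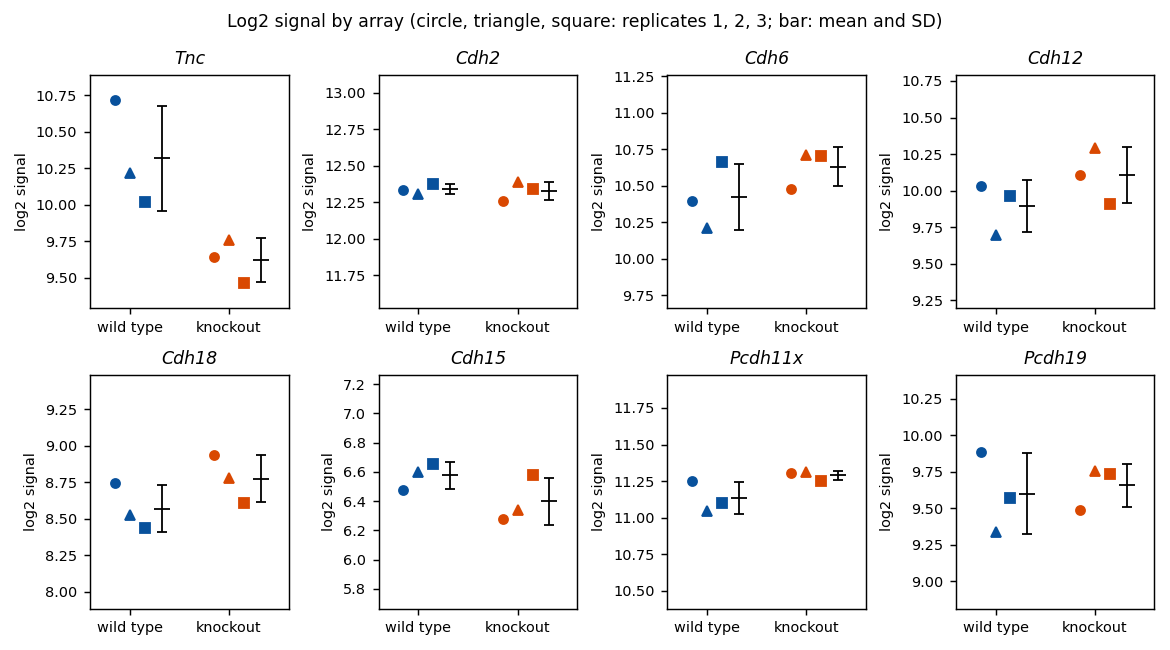
Log2 signal in each array (circle, triangle and square for replicates 1, 2 and 3) for Tnc and 7 members, with bars for the mean and SD of 3 arrays. Each panel spans the same height in log2 units. The groups separate for Tnc (9.47 to 9.76 against 10.02 to 10.72) and overlap in the other panels.

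The 5 other Cdh genes differed by -0.02 to 0.06. T-cadherin (Cdh13), which lacks a cytoplasmic tail and is held by a lipid anchor, read 11.48, 11.45 and 11.51 in wild type and 11.55, 11.58 and 11.46 in knockout. The groups overlapped at a difference of 0.05. Cdh16, the kidney cadherin, read 6.13, 6.26 and 6.59 against 6.28, 6.34 and 6.53, a difference of 0.06 that was -0.04 without wild-type replicate 1. Cdh17 and Cdh26 were below the background guide, and Cdh23, a hair cell tip link protein, differed by 0.04.

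Among delta1 protocadherins, whose long cytoplasmic tails bind a phosphatase, all 4 genes were higher in knockout, with a median of 0.05. X-linked Pcdh11x read 11.25, 11.04 and 11.10 in wild type and 11.31, 11.31 and 11.25 in knockout. Again 2 knockout arrays were above all wild-type arrays and replicate 3, at 11.2509, was just under wild-type replicate 1, at 11.2536. The difference was 0.16 (standard error 0.08) with an interval from -0.03 to 0.34. The unadjusted p was 0.0853, and 0.0362 with an intensity trend and robust fitting, with an adjusted p of 1 after rounding. Knockout replicates 1 and 3, with Y-linked signal, read 11.31 and 11.25, and knockout replicate 2, without it, read 11.31. With a term for the Y-linked level the difference was 0.18. That fit sets mainly knockout replicate 2, the only knockout array without Y-linked signal, against wild type. The part of sex was not tested apart from that array. Pcdh9, widely expressed in neurons, read 11.21, 11.07 and 11.13 against 11.19, 11.31 and 11.14, a difference of 0.07. Its second row gave 0.02. Pcdh7 read 9.94, 9.71 and 9.67 against 9.72, 9.91 and 9.78, and Pcdh1 read 7.65, 7.45 and 7.36 against 7.46, 7.56 and 7.49. Both lay highest in wild-type replicate 1, and their differences of 0.03 and 0.01 turned negative without wild-type replicate 3 (-0.02 and -0.05), and also without wild-type replicate 2 or knockout replicate 2.

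Delta2 protocadherins, which bind the WAVE complex regulating actin, were higher in 4 of 5 cases, with a median of 0.04. Pcdh10, needed for axon growth, read 10.63, 10.64 and 10.62 in wild type and 10.64, 10.82 and 10.54 in knockout. Its wild-type values nearly coincided while the knockout arrays fell on both sides of them, at a difference of 0.04. Pcdh18 read 10.21, 10.10 and 10.27 against 10.16, 10.42 and 10.20, a difference of 0.07 that was -0.01 without knockout replicate 2. Pcdh17, expressed in neural subsets, read 10.65, 10.43 and 10.74 against 10.47, 10.67 and 10.62, and it was the only non-clustered gene below wild type, at -0.02. Its difference was 0.05 without wild-type replicate 3. Pcdh8, a protocadherin of synapses, read 8.77, 8.89 and 8.73 against 8.84, 8.86 and 8.79, a difference of 0.03.

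X-linked Pcdh19, mutated in a human epilepsy, read 9.89, 9.34 and 9.57 in wild type and 9.49, 9.75 and 9.73 in knockout. The wild-type arrays spanned the knockout arrays on both sides. The 95% interval of the difference, 0.06, ran from -0.27 to 0.39, and leaving out wild-type replicate 2 turned it to -0.07. Pcdh20 read 7.27, 7.16 and 7.34 against 7.53, 7.34 and 7.20, a difference of 0.10 that was 0.01 without knockout replicate 1. Pcdh12, a protocadherin of endothelium, read 6.86, 7.02 and 7.39 against 7.20, 7.24 and 7.15, also a difference of 0.10. The 5 endothelial markers, Cdh5 among them, had a summed level of 11.47 to 11.66 in wild type and 11.63 to 11.77 in knockout on the log2 scale. All 5 were higher in knockout (median 0.20), and 3 had groups that did not overlap, against 5.82% of all genes. Cdh5 was among these 3, at a difference of 0.26 and an unadjusted limma p of 0.031, and did not pass the adjusted test. The part of endothelium in the Pcdh12 values was not tested. Pcdh15, a partner of Cdh23 in hair cells, differed by 0.08.

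Upstream sequence was read for members whose highest array was knockout replicate 2, to set type II cadherins of chromosome 15 beside delta2 protocadherins. RefSeq windows of GRCm38.p6 matched 22 members, none of them of the Pcdhb cluster, and the 250 bases before the annotated start were searched on both strands for CCAAT, the box bound by nuclear factor Y. The windows shown are all those of the 2 sets that met this condition. They lie at chr15:13173676-13173925 on the minus strand for Cdh6, chr15:16728665-16728914 on the plus strand for Cdh9, chr15:18820079-18820328 on the plus strand for Cdh10, chr15:21111202-21111451 on the plus strand for Cdh12, chr3:45378148-45378397 on the plus strand for Pcdh10 and chr3:49757317-49757566 on the minus strand for Pcdh18. They are printed 5′ to 3′ on the strand of the gene, with capitals for CCAAT or its complement ATTGG.
Cdh6: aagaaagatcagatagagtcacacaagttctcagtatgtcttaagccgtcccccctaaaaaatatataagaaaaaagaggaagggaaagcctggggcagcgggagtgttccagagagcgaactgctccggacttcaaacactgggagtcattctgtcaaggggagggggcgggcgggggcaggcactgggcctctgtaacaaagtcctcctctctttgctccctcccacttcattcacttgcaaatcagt
Cdh9: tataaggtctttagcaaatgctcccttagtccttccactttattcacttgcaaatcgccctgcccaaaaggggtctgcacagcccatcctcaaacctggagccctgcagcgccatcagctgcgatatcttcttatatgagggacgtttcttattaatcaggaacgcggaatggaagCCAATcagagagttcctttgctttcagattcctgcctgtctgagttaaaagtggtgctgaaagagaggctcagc
Cdh10: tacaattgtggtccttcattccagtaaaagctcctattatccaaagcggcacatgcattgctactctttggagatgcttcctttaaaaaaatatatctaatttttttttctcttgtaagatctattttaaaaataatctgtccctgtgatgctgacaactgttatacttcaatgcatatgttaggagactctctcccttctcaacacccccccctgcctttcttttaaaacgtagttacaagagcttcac
Cdh12: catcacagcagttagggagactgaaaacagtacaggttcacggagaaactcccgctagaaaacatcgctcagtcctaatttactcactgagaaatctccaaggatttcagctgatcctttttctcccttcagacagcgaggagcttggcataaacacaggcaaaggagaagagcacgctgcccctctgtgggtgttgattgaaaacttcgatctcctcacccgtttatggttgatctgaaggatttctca
Pcdh10: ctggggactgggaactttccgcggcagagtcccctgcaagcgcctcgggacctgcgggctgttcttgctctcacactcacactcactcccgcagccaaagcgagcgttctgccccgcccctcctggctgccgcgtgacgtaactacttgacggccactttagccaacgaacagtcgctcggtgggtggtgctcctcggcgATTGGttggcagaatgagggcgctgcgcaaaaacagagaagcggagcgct
Pcdh18: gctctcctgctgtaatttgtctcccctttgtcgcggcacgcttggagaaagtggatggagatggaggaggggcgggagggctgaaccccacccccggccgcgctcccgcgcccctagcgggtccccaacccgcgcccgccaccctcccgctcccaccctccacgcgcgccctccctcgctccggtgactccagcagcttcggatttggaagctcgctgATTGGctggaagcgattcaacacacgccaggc

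The box was present in 8 of 9 non-clustered protocadherins with a window, all but Pcdh7, and in 5 of 11 classical cadherins, against 37.5% of all genes with a window. It began 50 bases before the start in Pcdh10 and 32 in Pcdh18. Of the chromosome 15 cadherins, Cdh9 had it 74 bases and Cdh18, highest in knockout replicate 1, 62 bases before the start, and no match was found in Cdh6, Cdh10 or Cdh12. The share of G and C was 51.2% for Cdh6, 48.0% for Cdh9, 36.8% for Cdh10 and 46.8% for Cdh12. It was 63.2% for Pcdh10 and 68.0% for Pcdh18, where the median of all windows was 52.4%. Of 3 other motifs searched on both strands, CAGGTG, bound by Snail and Zeb repressors, occurred in 2 of 22 members (19.4% of all genes), TATAAA in 2 (14.3%) and TAATTA in 1 (5.65%). Matches describe the letters only.

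The arrays differed within the wild-type group in a way that split the classes, a pattern noticed after the values were seen. Of the 33 members outside the Pcdhb cluster, 17 had their lowest value in wild-type replicate 2, among them 7 of 11 type II cadherins and 7 of 12 non-clustered protocadherins. For all genes that share was 12.4%, and for the 22 Pcdhb genes the count was 0. The mean deviation from each gene's own average in that array was -0.17 for type II cadherins, -0.12 for non-clustered protocadherins, 0.10 for type I cadherins and 0.12 for Pcdhb genes.

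**Figure D3:**
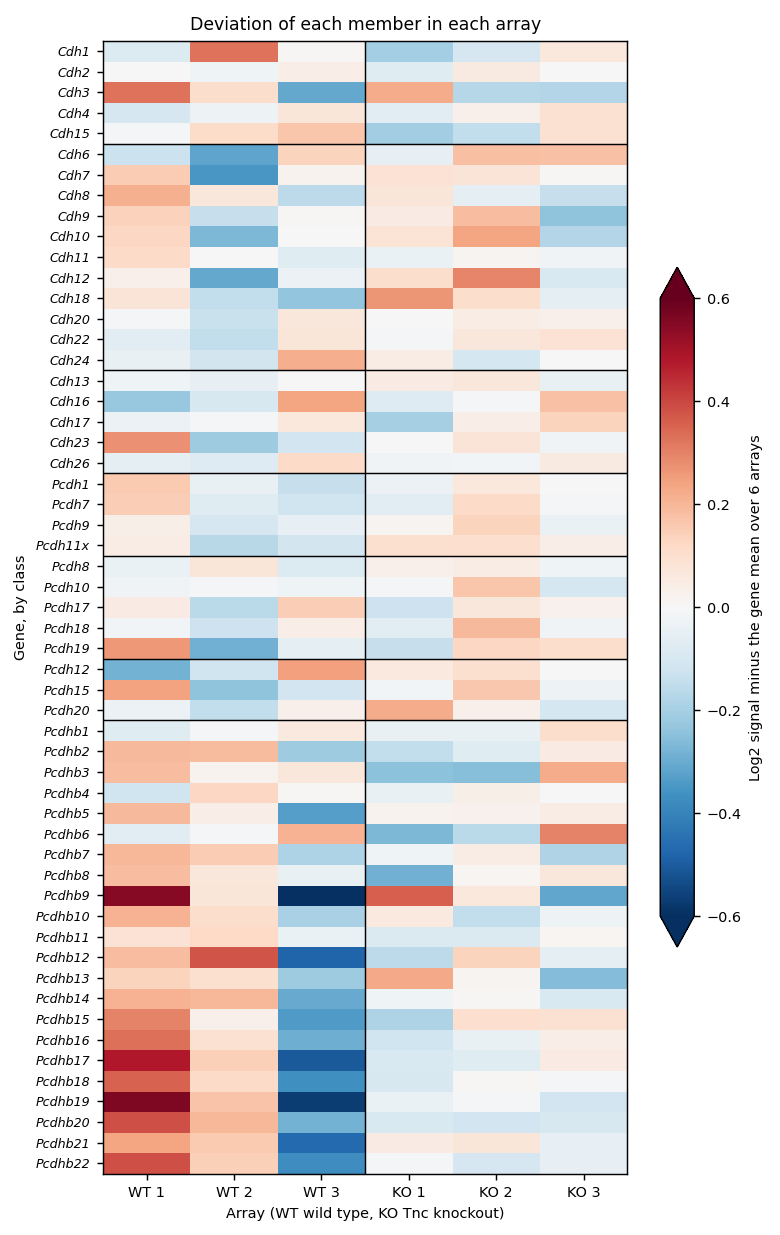
Log2 signal minus the gene's mean over the 6 arrays, with arrays in columns and the 55 genes in rows, grouped by class (lines). Red stands for above and blue for below the gene's mean. In the lower block, 14 of the 22 Pcdhb genes have their highest value in wild-type replicate 1 and their lowest in wild-type replicate 3, with Pcdhb1, Pcdhb4 and Pcdhb6 among the exceptions. Above it, 17 of 33 rows are lowest in wild-type replicate 2.

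The clustered protocadherins had a wider spread between wild-type arrays than genes in general. Their median wild-type range was 0.52 and their median absolute difference between genotypes 0.08, where all genes had 0.24 and 0.05. A range over 3 single arrays exceeds a difference of means for most genes, so range and difference are not to be compared. The Pcdhb genes are short neighbours on chromosome 18 with closely similar coding exons, so signal may be shared between copies and single values are uncertain. Pcdhb19 read 8.99, 8.60 and 7.86 in wild type and 8.39, 8.42 and 8.31 in knockout. Pcdhb17 read 8.97, 8.63 and 7.98 against 8.39, 8.41 and 8.54, and Pcdhb9 read 8.20, 7.73 and 6.93 against 8.01, 7.72 and 7.35. In each of them wild-type replicate 1 was the highest and wild-type replicate 3 the lowest of all 6 arrays, with the knockout arrays between.

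This order, wild-type replicate 1 highest and replicate 3 lowest, was found in 14 of 22 Pcdhb genes, in 5 of the 33 other members and in 8.45% of all genes. The opposite order was the commoner one among all genes, at 14.5%, and was found in 0 of 22 Pcdhb genes and 2 of the 33 other members. Wild-type replicate 1 exceeded replicate 3 by 0.5 log2 units or more in 12 of 22 Pcdhb genes and in 1 of the 33 other members, against 3.03% of all genes. The median gap between these 2 arrays was 0.52 for Pcdhb genes and -0.06 for all genes. The median range was 0.52 over the wild-type arrays and 0.16 over the knockout arrays, where all genes had 0.24 and 0.16. Pcdhb20 read 9.03, 8.84 and 8.36 in wild type but 8.55, 8.53 and 8.55 in knockout. Pcdhb5 likewise read 7.99, 7.84 and 7.47 against 7.82, 7.82 and 7.84. The wild-type range was the wider for 17 of the 22 genes and for 67.5% of all genes.

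The gap grew along the cluster. All 14 genes from Pcdhb9 to Pcdhb22 were higher in wild-type replicate 1 than in replicate 3, with a median of 0.67, against 5 of 8 genes from Pcdhb1 to Pcdhb8, with a median of 0.17, and 41.1% of all genes. Spearman's rho across the 22 genes between place in the cluster and gap was 0.73, and between mean level and gap -0.05. These genes share arrays, a chromosome region and similar sequence, and they are not independent replicates. Pcdhb6 went the other way, at 9.07, 9.12 and 9.34 in wild type. Of the 10 nearest measured neighbours outside the cluster, 5 on each side, 1 (Zmat2) had this order and the median gap was 0.08. Taf7, a neighbour beyond Pcdhb22, read 7.48, 7.50 and 7.17 against 7.37, 7.33 and 7.24. A row that names 14 clustered genes of the Pcdha group together, which is no member, read 8.72, 8.60 and 8.53 in wild type and 8.65, 8.64 and 8.59 in knockout, again highest in wild-type replicate 1 and lowest in replicate 3.

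**Figure D4:**
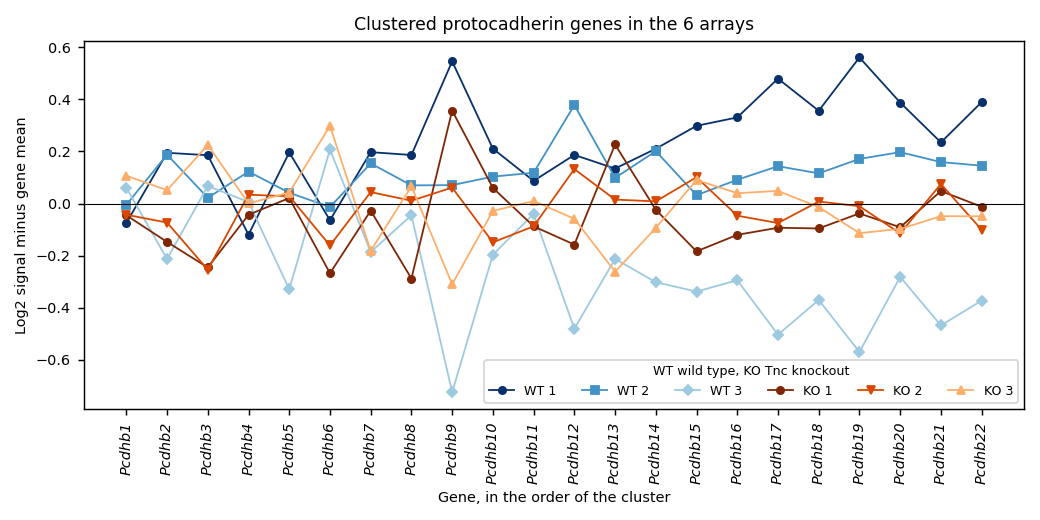
Log2 signal minus the gene's mean over 6 arrays (vertical axis) for the 22 Pcdhb genes in cluster order, with 1 line for each array. From Pcdhb9 onward wild-type replicate 3 (pale diamonds) lies below 0 for every gene and wild-type replicate 1 (dark circles) above it, with the knockout lines mostly between.

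Between genotypes the members of smallest p in the cluster were Pcdhb11 and Pcdhb3. Pcdhb11 read 7.81, 7.84 and 7.69 in wild type and 7.64, 7.64 and 7.74 in knockout, a difference of -0.11 with an interval from -0.29 to 0.07. Pcdhb3 read 8.67, 8.51 and 8.56 against 8.24, 8.23 and 8.71. For Pcdhb3 2 knockout arrays lay below all wild-type arrays and the other above them, and the difference of -0.18 was -0.34 without knockout replicate 3. Most cell type marker lists, though not those of neurons and blood, had a higher mean in wild-type replicate 3 than in replicate 1. Among all genes 41.1% were higher in replicate 1 than in replicate 3. The mean of 5 cartilage markers was 7.34, 7.53 and 7.75 in wild-type replicates 1, 2 and 3, with 2 of the 5 below the background guide, and that of 5 motor neuron markers was 8.11, 8.32 and 8.49. Their summed levels on the log2 scale were 11.02 to 11.26 and 10.97 to 11.39 in wild type, and 11.05 to 11.25 and 11.22 to 11.35 in knockout. The mean of 5 skeletal muscle markers was 6.56, 6.68 and 6.87. The mean of 6 neuron markers stayed between 11.87 and 11.90. That of 3 measured markers of Schwann cells and ganglia, 1 of them below the background guide, stayed between 7.14 and 7.16. The part of cell makeup in the Pcdhb pattern was not tested.

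Genes that work with cadherins were listed by role. None of 69 measured genes on 6 lists passed the adjusted test. Of 11 catenins and junction linkers 7 were higher (median 0.01), and beta-catenin (Ctnnb1), which ties cadherins to alpha-catenin, differed by 0.01 with 12.23, 12.27 and 12.20 in wild type and 12.27, 12.21 and 12.25 in knockout. Plakoglobin (Jup) and vinculin (Vcl), linkers of junctions to the cytoskeleton, differed by 0.14 and 0.12. Of 21 large or distant cadherin relatives 9 were higher (median -0.01), with Fat3 at -0.17. The calsyntenin Clstn3 read 11.01, 10.99 and 11.11 in wild type and 11.17, 11.14 and 11.17 in knockout, a difference of 0.12. It was the only one of the 69 genes whose groups did not overlap, where 5.82% of all genes had groups that did not. Of 6 proteases that process cadherins 4 were higher (median 0.01), with Pcsk6 at 0.10 and Adam10, which sheds cadherin ectodomains, at -0.05.

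Of 7 repressors of cadherin genes 2 were higher (median -0.07). Twist1 read 7.14, 6.99 and 7.05 in wild type and 6.727, 6.757 and 6.996 in knockout, a difference of -0.23 with overlapping groups and an unadjusted limma p of 0.0401. It was the only one of the 69 genes with an unadjusted p under 0.05, against 1.7% of all genes. Snai2 differed by 0.08. Of 11 cytoplasmic partners of protocadherins 6 were higher (median 0.02), with Abi1, of the WAVE complex, at 0.06 and the kinase Ptk2b at -0.06. Of 13 genes of protocadherin promoter choice and chromatin 1 was higher (median -0.05), where 46.4% of all genes were. Smchd1, a chromatin protein that represses clustered protocadherins, read 10.49, 10.07 and 9.89 in wild type and 9.997, 9.946 and 9.822 in knockout, a difference of -0.23 with overlapping groups. The cohesin subunit Smc3 differed by -0.11. The insulator protein Ctcf, which links clustered promoters to their enhancer, read 10.28, 10.27 and 10.27 against 10.26, 10.22 and 10.27. Of these 13 genes, 4 had their highest array in wild-type replicate 1 and their lowest in replicate 3, against 8.45% of all genes. The median gap between these arrays was 0.15, where all genes had -0.06. A link to the Pcdhb pattern was not tested.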

How the data were processed

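RNA of 6 lumbar cord samples (3 wild type, 3 Tnc knockout) was hybridised to 1 array each. Per the submitters' processing notes the deposited log2 values were made by the authors with RMA, which corrects background, equalises array distributions and summarises the probes of a row. Version and genome build are not given here. RMA removes global shifts and compresses small changes, and the number of arrays limits precision. Background correction could not be varied and slides or scan batches are not known.

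Of 35557 rows, 21789 had 1 symbol in the platform annotation, 1621 several and 12147 none listed. Symbols were updated by gene ID against RefSeq (GRCm38.p6, used for names, chromosomes, gene order and upstream sequence), giving 19938 genes. Groups were compared with limma 3.58.1 in R 4.3.3 (lmFit, eBayes, group as only term), two-sided, adjusted over all genes by Benjamini-Hochberg at 0.05. Tnc also had an exact permutation test. The fit was tested on simulated data. No set test was run, and lists are given by counts and medians beside all genes.

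Named in full are 22 members fixed by name, any without overlap between groups (0) and the 2 of smallest p in each class, 27 in all. Side lists are named by their 2 smallest p, and Ctnnb1, Ctcf and other members were added after seeing values. Members, classes and lists were chosen with earlier results of these data known. The deviations of same-numbered arrays correlated at 0.35, -0.07 and 0.45 for numbers 1, 2 and 3. Between wild-type replicate 1 and knockout replicate 3 the correlation was -0.37, and between wild-type replicate 3 and knockout replicate 1 it was -0.47. Same-numbered arrays thus correlated positively for numbers 1 and 3 and not for number 2. Wild-type replicate 2 and knockout replicate 1 also correlated, at 0.28, and deviations within a group of 3 arrays are not independent. The labels state no pairing, and the main fit used none. Alternatives were leaving out each array, a replicate block, a filter at the 25th percentile of level, an intensity trend with robust fitting, renewed quantile normalization, the mean of all rows of a gene, a term for Y-linked level and array weights. Leaving out both wild-type replicates 1 and 3 was added after seeing the data.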

Additional observations from a re-analysis of the deposited data

How the results depend on the processing

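No member passed an adjusted p of 0.05 in limma under any of the 14 alternatives. The count over all genes was 0 throughout, apart from 4 genes, none of them members, without knockout replicate 2. Members at an unadjusted p under 0.05, 0 in the main comparison, numbered 0 to 12 with 1 array left out, 12 being without wild-type replicate 3 (6.91% of all genes), against 2 for leaving out wild-type replicate 1 (3.33%), 4 for knockout replicate 3 (1.48%) and 0 for each other array (1.1% to 1.28%). They numbered 1 with the replicate block (Cdh18, 3.19% of all genes), 1 with an intensity trend and robust fitting (1.62%), 1 with the mean of all rows of a gene (1.68%), 25 with array weights (21.0% of all genes) and 10 without both wild-type replicates 1 and 3 (4.23%). The array weights rest on wild-type replicate 2 (weight 6.39, the others 0.27 to 2.14), and their estimation stopped before convergence. The replicate block moved no other member past either threshold. The median of classical cadherins ran from -0.028 to 0.071 with 1 array left out, and was 0.10 with array weights and 0.11 without both wild-type replicates 1 and 3. That of non-clustered protocadherins ran from 0.01 to 0.10, and was 0.15 with the Y-linked term, 0.17 with array weights and 0.16 without both arrays. That of Pcdhb genes, -0.08 in the main comparison, ran from -0.21 to 0.02, and was -0.15 with array weights and -0.14 without both arrays. The fit with the Y-linked term sets mainly knockout replicate 2, the only knockout array without Y-linked signal, against wild type.

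Of the 27 members named in full, 12 kept their direction under all 14 alternatives and 15 turned with some single array left out, 5 of these also under other alternatives. With 1 array left out the range was -0.017 to 0.21 for Cdh10, -0.074 to 0.022 for Cdh11, -0.041 to 0.19 for Cdh16, -0.039 to 0.025 for Cdh2, -0.000373 to 0.085 for Cdh4, -0.032 to 0.22 for Cdh7, -0.18 to 0.00457 for Cdh8 and -0.10 to 0.11 for Cdh9. It was -0.050 to 0.097 for Pcdh1, -0.037 to 0.10 for Pcdh10, -0.11 to 0.046 for Pcdh17, -0.013 to 0.12 for Pcdh18, -0.073 to 0.20 for Pcdh19, -0.023 to 0.11 for Pcdh7 and -0.00115 to 0.075 for Pcdh8. The Y-linked term gave 0.00509 for Cdh11, 0.051 for Cdh2, 0.17 for Cdh9 and 0.066 for Pcdh17. Array weights gave 0.037 for Cdh2, 0.18 for Cdh9, 0.15 for Pcdh17 and -0.034 for Pcdh8, and leaving out both wild-type arrays gave 0.021, 0.14, 0.15 and -0.056 for the same genes. The cause of these changes was not tested.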
